A study of Mus musculus with 2 samples.

Results

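Mitochondrial ribosomal protein genes were compared between 2 microarrays of innate lymphoid cell (ILC) progenitors, one labelled Yeats4 knockout and the other wild type. They were taken as all genes whose symbol in the platform annotation begins with Mrpl or Mrps followed by a number. The platform lists 76 such genes among 19505 named genes, 48 named for the large ribosomal subunit (Mrpl) and 28 for the small one (Mrps). Each has 1 probe set, and all 76 passed the filter on low values, a mean of the 2 arrays at or above 2.88 on the log2 scale, which 10881 genes passed in all. Mrpl53 and Mrps6, which the RefSeq gene table also lists, were not analysed here.

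One group is RNA of ILC progenitors labelled Yeats4 knockout and the other RNA of wild-type littermates' progenitors, with 1 array each. Per the labels, 200000 cells were sorted as lineage-negative, CD127+ and α4β7+, and for intermediate levels of c-Kit and of Sca-1. The labels do not give the promoter or Cre behind the deletion, the age of the mice or how many were pooled. With 1 array a genotype no test can be made, and every difference below lies between these arrays without a replicate error. Fewer cells of a type and less RNA per cell cannot be told apart in such bulk samples.

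Mitochondria carry their own ribosome, the mitoribosome, which makes a small set of membrane proteins of the respiratory chain and the ATP synthase from messengers of mitochondrial DNA. Its RNA comes from mitochondrial DNA, but all of its proteins are encoded in the nucleus, made in the cytosol and imported. Some are descended from bacterial ribosomal proteins and others were added in mitochondria. Yeats4 is a reader of acetylated histones found in the SRCAP and Tip60 chromatin complexes.

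Values are log2 expression after robust multi-array averaging (RMA), and differences are the value on the array labelled Yeats4 knockout (the array labelled KO, or KO) less that on the wild-type (WT) array. The probe set of Yeats4 read 5.90 on the array labelled KO and 5.96 on the WT array. Where its probes lie relative to the deletion is not known here, so this reading does not check the label. The 95th percentile of the negative control probe sets was 4.73 on the array labelled KO and 4.80 on the WT array, and genes under both levels are termed near background. Each gene was also set beside the 500 genes nearest to it in mean level, called its like-level genes, because the median difference of all genes varied with level.

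Markers of other blood cells differed between the arrays, and for each list the linear signals were also summed. Of the T cell markers, 12 of 13 were lower by 1.5-fold or more on the array labelled KO, beside 5.16% of all genes past the filter, with sums of 297 (KO) and 906 (WT). Of the B cell markers 7 of 10 were as low, with sums of 769.8 (KO) and 1409 (WT). Eosinophil markers were as low in 4 of 6 cases and at least 1.5-fold higher in 1, with sums of 690 (KO) and 1969 (WT). Macrophage markers were as high in 8 of 10 cases, beside 9.16% of all genes, with sums of 707 (KO) and 435 (WT). Of 14 neutrophil and monocyte markers 1 was as high and none as low, with sums of 14740 (KO) and 13192 (WT). This list was split, with 6 markers higher and 8 lower on the array labelled KO. The highest were Ctsg (0.72), Prtn3 (0.55) and Elane (0.34), and the lowest Ltf (-0.55), Mmp9 (-0.50) and Itgam (-0.42). Ctsg lay above 99.4% of its like-level genes and Ltf above 1.0%. None of 5 erythroid markers passed either fold, with sums of 337 (KO) and 294 (WT). Of 15 mitotic genes 3 were as high and none as low, with sums of 2095 (KO) and 1751 (WT). The 3 were Hmmr, Cenpf and Bub1, each with a WT reading under the negative control level, and Cenpf was near background. All 15 mitotic genes read higher on the array labelled KO, with a median difference of 0.33. Relative to like-level genes their median was 0.17, and 13 of the 15 lay above their like-level median. No marker was listed at 0 on either array. Both readings were above the negative control level for 5 of 13 T cell, 6 of 10 B cell, 3 of 6 eosinophil and 7 of 10 macrophage markers. The other markers of these lists had at least 1 reading under that level, so their differences are as measured. Among the macrophage markers, Cd5l, Adgre1 and Mertk were near background. Of 9 genes of ILC progenitors and of the sort gate, 6 were lower and 3 higher on the array labelled KO, with a median difference of -0.35 and sums of 1639 (KO) and 1721 (WT). By 1.5-fold or more, 3 were lower and 2 higher. The 3 were Nfil3 at 8.49 (KO) and 9.43 (WT), Il7r, which encodes CD127, at 6.38 (KO) and 7.07 (WT), and Ets1 at 6.55 (KO) and 7.22 (WT). The 2 were Id2 at 9.11 (KO) and 7.88 (WT) and Kit at 7.77 (KO) and 7.12 (WT). Tox (-0.58), Zbtb16 (-0.35) and Itgb7 (-0.14) were also lower, and Itga4 was at 0.00. None of these 9 genes was near background on both arrays. The part of other cells in the differences below was not tested.

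The mitoribosomal genes read slightly higher as a group on the array labelled KO, in both subunits and by a small amount. Over all 76 the median difference was 0.26, a factor of 1.20, against 0.08 over all genes past the filter. The members' quartiles were 0.09 and 0.47, and their range was -0.45 to 1.06. Relative to like-level genes the median was 0.14, a factor of 1.11. As deposited, 64 members were higher and 12 lower on the array labelled KO, a split of 84.2% higher, against 58.2% of all genes. The split was 57 to 19 after centring on the median of all genes, 56 to 20 after quantile normalization and 55 to 21 after a loess correction on level, and 11 members turned their sign under at least 1 of these.

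In all, 54 of 76 members, or 71.1%, lay above the median of their like-level genes, beside 49.8% of all genes. At least 1.5-fold higher as measured were 12 members, or 15.8%, beside 9.16% of all genes past the filter and an average of 9.61% among the members' like-level genes. Of the 5222 negative control sets, 13.5% were as high and 14.9% as low. Among the 52 members above the negative control level on both arrays the share was 9.62%, or 5 genes, and the other 7 of the 12 had a reading under that level. The share of all genes above that level on both arrays was not computed, so the 9.62% has no like set beside it. Among genes whose mean passed the control level of means (4.75), 8 of 56 members were as high, beside 7.89% of all genes. Some of these 8 had a WT reading under the negative control level. No member was 1.5-fold lower, beside 5.16% of all genes, but after the loess correction or quantile normalization 1 was. Only Mrpl15 passed 2-fold higher as measured, beside 1.56% of all genes, but it was near background on both arrays and has no fold. None was 2-fold lower, beside 0.781%. Single genes of like level typically scattered by 0.35 (scaled median absolute deviation), the local spread. Most members lay within 1 local spread of their like-level median, with 19 further above it and 3 further below.

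**Figure D1:**
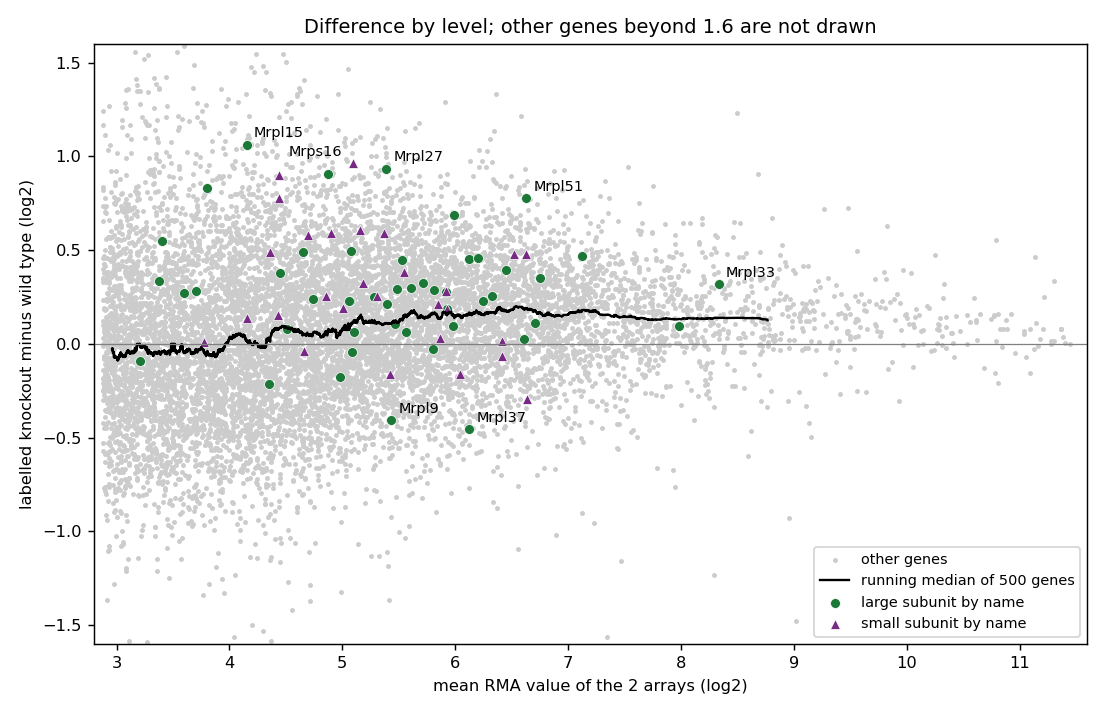
Difference between the array labelled Yeats4 knockout and the WT array (log2, vertical) against the mean of both arrays (log2, horizontal), 1 point a gene, with 16 other genes beyond 1.6 not drawn. Large subunit genes by name are circles, small subunit genes triangles, all other genes past the filter grey, and the black line is the running median of 500 genes; the members lie inside the grey scatter, with 64 of 76 above 0.

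The medians of the large and small subunits lay close together. The 48 Mrpl genes had a median difference of 0.27 and the 28 Mrps genes one of 0.26, and their medians relative to like-level genes were 0.15 and 0.14. Of the Mrpl genes 33 lay above their like-level median and 6 were at least 1.5-fold higher, and of the Mrps genes 21 and 6. The shares at least 1.5-fold higher were 12.5% and 21.4%, beside 9.16% of all genes past the filter. Gene names do not always follow the structure of the mammalian mitoribosome. The products of Mrps30 and Mrps18a sit in the large subunit, and that of Mrps36 is known as a component of the oxoglutarate dehydrogenase complex. With these moved or left out, the medians were 0.28 for 50 large subunit genes and 0.21 for 25 small subunit genes, and 7 and 4 genes were at least 1.5-fold higher. The gap between the subunits' medians was 0.02 by name and 0.07 by structure, and it was not tested.

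**Figure D2:**
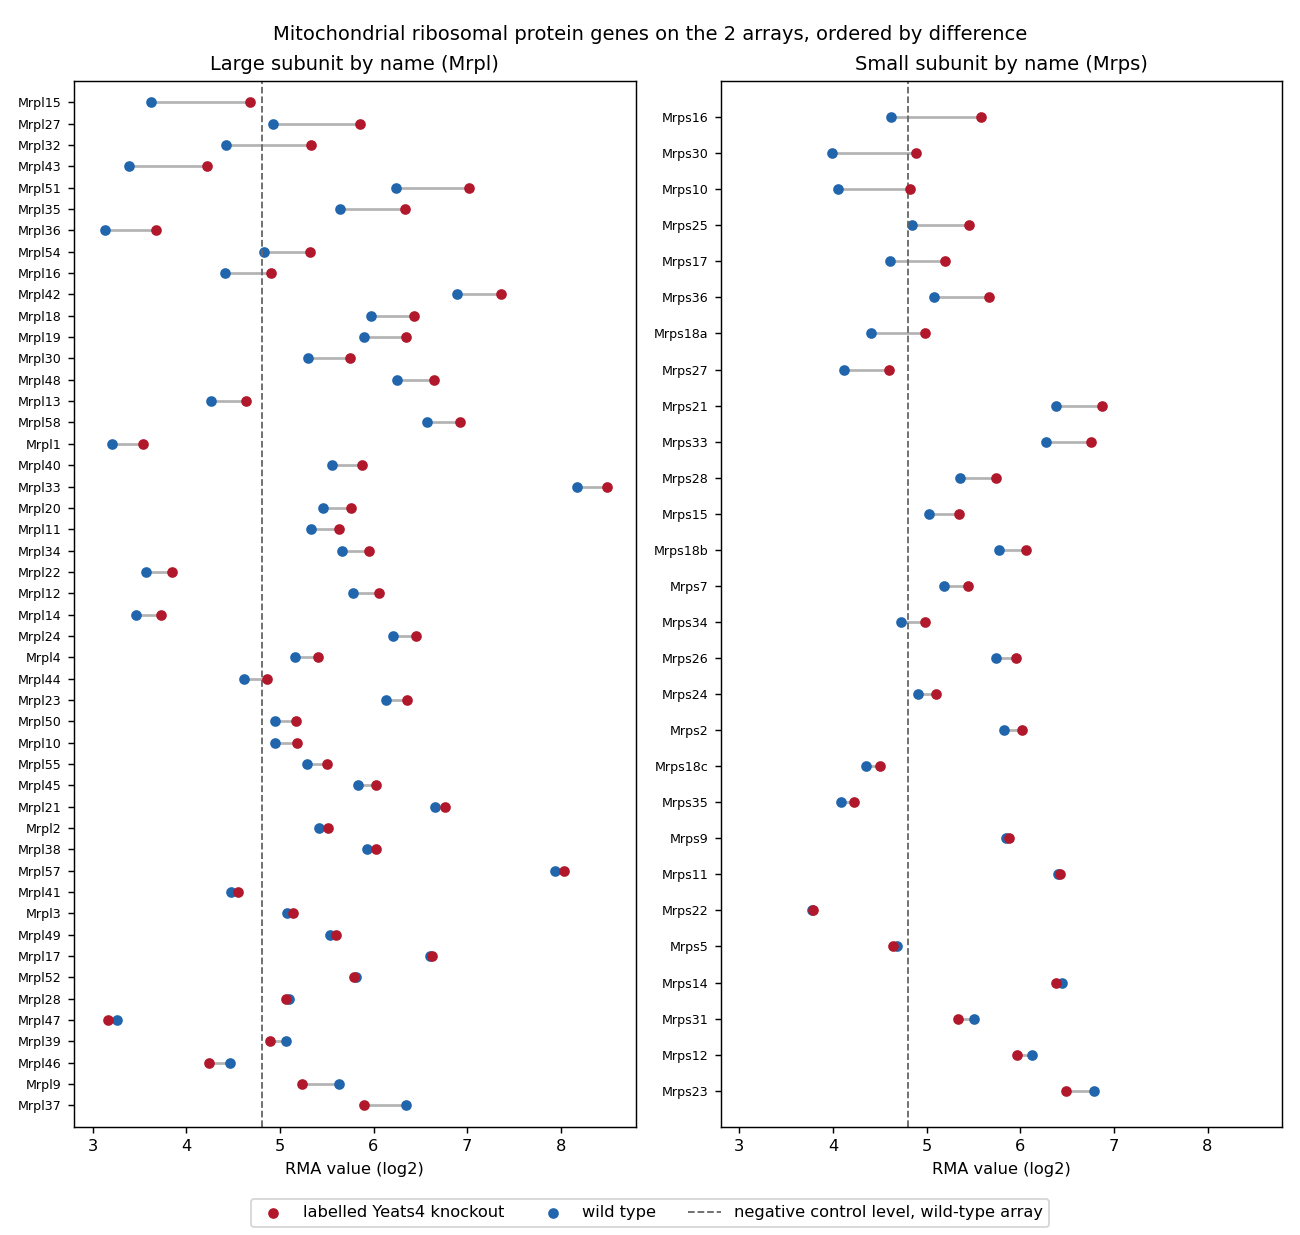
RMA values (log2, horizontal) of all 76 mitochondrial ribosomal protein genes on the array labelled Yeats4 knockout (red) and the WT array (blue), ordered by difference within the subunit given by the gene name. The dashed line is the 95th percentile of negative controls on the WT array (4.80); 24 genes have at least their WT reading left of it, and red lies right of blue in 41 of 48 Mrpl and 23 of 28 Mrps genes.

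Promoter stretches are shown for the members above the negative control level on both arrays that differed most in either direction and have 1 promoter window in the RefSeq table, since they let the shared letters be read beside the values. Mrpl27 and Mrpl51 read higher on the array labelled KO and Mrpl37 and Mrpl9 lower. Each is the 120 bases before the annotated start, 5′ to 3′ on the gene's strand, in build GRCm38.p6, with matches to any of 3 searched motifs in capitals. The motifs, searched on both strands, were CCGGAAG, a core bound by ETS family factors, GCATGCG, the middle of the nuclear respiratory factor Nrf1 site, and AAGATGG, a core of the Yy1 site.
Mrpl27, chr11:94653671-94653790, plus strand: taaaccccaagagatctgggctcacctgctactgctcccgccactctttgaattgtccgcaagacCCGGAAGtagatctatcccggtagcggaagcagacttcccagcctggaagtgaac
Mrpl51, chr6:125192080-125192199, plus strand: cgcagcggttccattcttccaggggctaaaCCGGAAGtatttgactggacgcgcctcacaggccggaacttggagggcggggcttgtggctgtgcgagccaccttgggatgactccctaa
Mrpl37, chr4:107066867-107066986, minus strand: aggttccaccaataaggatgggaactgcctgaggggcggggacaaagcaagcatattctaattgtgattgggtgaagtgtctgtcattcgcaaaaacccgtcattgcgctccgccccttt
Mrpl9, chr3:94443216-94443335, plus strand: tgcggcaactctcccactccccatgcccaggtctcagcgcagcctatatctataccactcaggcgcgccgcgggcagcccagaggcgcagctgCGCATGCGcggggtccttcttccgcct

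In these stretches the ETS letters begin 55 bases before the start in Mrpl27 and 90 bases before it in Mrpl51. Mrpl9 holds the Nrf1 letters on both strands, overlapping by all but 1 base. The stretch of Mrpl37 has no match, although its window holds the Yy1 letters from base 27 after the start. Promoter windows (250 bases before to 50 after the start) were found for 67 of the 76 members, 73 windows in all. Of these 73 windows, 37 held at least 1 of the motifs.

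The share of windows with each motif is given beside that of other promoters, with no test. CCGGAAG was in 34.2% of the members' windows, against 16.9% of windows of genes past the filter and 8.86% of all windows. GCATGCG was in 11.0% against 5.99% and 3.58%, and AAGATGG in 17.8% against 7.08% and 6.34%. At least 1 of the motifs was in 50.7% of the members' windows and in 26.9% of those of genes past the filter. By subunit, CCGGAAG was in 29.8% of 47 Mrpl windows and 42.3% of 26 Mrps windows, and GCATGCG in 14.9% and 3.85%. The members with and without CCGGAAG had median differences of 0.29 (25 genes) and 0.23 (42 genes). For GCATGCG the medians were 0.25 in 8 genes with it and 0.26 in the others, and for AAGATGG 0.26 in 13 genes with it and 0.26 in the others. These gaps were not tested.

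Among Mrpl genes measured above the negative control level on both arrays, Mrpl27, Mrpl51 and Mrpl35 were the highest. Mrpl27, whose bacterial homologue reaches into the peptidyl transferase centre, read 5.86 on the array labelled KO and 4.92 on the WT array, which is 1.91-fold higher (0.94, local spread 0.39). Mrpl51, a protein added in mitochondria, read 7.02 and 6.24 on the array labelled KO and the WT array, 1.71-fold higher (0.78, local spread 0.29). Mrpl35, of bacterial descent, read 6.34 (KO) against 5.65 on the WT array, 1.61-fold higher (0.69, local spread 0.34). Each of these lay above at least 96.4% of its like-level genes. Mrpl54, another mitochondrial addition, read 5.33 on the array labelled KO and 4.83 on the WT array (0.50), above 84.6% of its like-level genes.

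The other Mrpl genes with large differences were dim. Mrpl32, whose precursor is cut by the m-AAA protease in yeast and mouse before it joins the ribosome, read 5.33 on the array labelled KO and 4.42 on the WT array. The WT reading is under the negative control level, so it was at least 1.44-fold higher (0.91 as measured, local spread 0.42). Mrpl15, the highest of all members by measured difference (1.06), read 4.68 on the array labelled KO and 3.62 on the WT array. Mrpl43, added in mitochondria, read 4.22 (KO) against 3.39 (WT), a difference of 0.83, and Mrpl36 3.68 (KO) against 3.13 (WT), a difference of 0.55. Neither array read any of these 3 above the negative control level, so their differences are given without a fold.

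At the other end, Mrpl37 and Mrpl9 were the lowest of all 76 members. Mrpl37, a mitochondrial addition to the large subunit, read 5.90 on the array labelled KO and 6.35 on the WT array, 1.37-fold lower (-0.45, local spread 0.32). It lay above only 3.40% of its like-level genes and was the only member in their lowest 5%, while 9 members were in the highest 5%. Mrpl9, whose bacterial homologue spans the base of a ribosomal stalk, read 5.23 and 5.64 on the array labelled KO and the WT array (-0.41, local spread 0.39). Mrpl39 read 4.89 (KO) against 5.06 (WT), a difference of -0.18, and Mrpl46, near background, 4.25 (KO) against 4.46 (WT), a difference of -0.22. Mrpl47, at the tunnel exit and near background, read 3.17 on the array labelled KO and 3.26 on the WT array (-0.09). Little difference was seen for Mrpl28 (5.06 on the array labelled KO and 5.10 on the WT array), Mrpl52 (5.79 in KO and 5.81 in WT) and Mrpl17 (6.62 in KO and 6.60 in WT). Apart from Mrpl37 and Mrpl9, all of these differed by less than their local spread.

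The regions of the large subunit with a known task were read apart. The stalk recruits translation factors, and its genes Mrpl10, Mrpl11 and Mrpl12 differed by 0.23, 0.29 and 0.27. Mrpl12, which is also reported to bind the mitochondrial RNA polymerase in human cells, read 6.05 on the array labelled KO and 5.78 on the WT array. Mrpl10 read 5.18 on the array labelled KO and 4.95 on the WT array, and Mrpl11 5.63 (KO) and 5.34 (WT). The 8 genes of the side where the new protein leaves had a median difference of 0.21, with none at least 1.5-fold higher or lower. Beside shares of 9.16% and 5.16% over all genes, a count of 0 says little for these 8 genes. Among them Mrpl45, which holds the ribosome at the inner membrane, read 6.02 on the array labelled KO and 5.84 on the WT array, and Mrpl23 6.36 (KO) and 6.13 (WT). Mrpl44, which has a ribonuclease III-like fold and is linked to cardiomyopathy in humans, read 4.86 on the array labelled KO and 4.62 on the WT array. Its WT reading was under the negative control level, so it was at least 1.04-fold higher. The 8 genes of the central protuberance, a lobe that faces the small subunit, had a median of 0.27 and ran from Mrpl46 at -0.22 to Mrpl27 at 0.94. Among them Mrpl18 was at 0.46 and Mrpl48 at 0.40, and Mrpl55 read 5.50 on the array labelled KO and 5.29 on the WT array. Mrpl3, close to the catalytic centre, read 5.14 on the array labelled KO and 5.07 on the WT array. Of the genes just named, Mrpl27 alone lay further than 1 local spread from its like-level median.

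In the small subunit list, 5 of the 8 highest genes had a WT reading under the negative control level and 1 was near background. Mrps16, a protein of bacterial descent whose loss impairs the respiratory chain in humans, read 5.58 on the array labelled KO and 4.62 on the WT array. It was at least 1.71-fold higher (0.96 as measured, local spread 0.35) and lay above 98.0% of its like-level genes. Mrps17 read 5.20 (KO) against 4.61 on the WT array and was at least 1.31-fold higher (0.59). Mrps10 read 4.83 on the array labelled KO and 4.05 on the WT array, and was at least 1.02-fold higher (0.78 as measured). For Mrps10 the limit is thus close to no change, although the measured difference was among the highest.

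Mrps25, a mitochondrial addition, and Mrps36 were the Mrps genes at least 1.5-fold higher with both readings above the negative control level. Mrps25 read 5.46 on the array labelled KO and 4.85 on the WT array, 1.53-fold higher (0.61, local spread 0.33). Mrps36, the gene whose product is no ribosomal subunit, read 5.67 (KO) against 5.08 on the WT array, 1.51-fold higher (0.59, local spread 0.37). Neither gene reached the highest 5% of its like-level genes.

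The genes named Mrps whose products sit in the large subunit were both higher as measured. Mrps30 read 4.89 on the array labelled KO and 3.99 on the WT array and was at least 1.06-fold higher (0.90 as measured). Mrps18a read 4.99 (KO) against 4.41 on the WT array and was at least 1.14-fold higher (0.58, just under the 1.5-fold threshold). Its relatives Mrps18b and Mrps18c, which belong to the same protein family but stay in the small subunit, differed less. Mrps18b read 6.06 on the array labelled KO and 5.78 on the WT array (0.28), and Mrps18c, near background, 4.51 (KO) and 4.35 (WT), a difference of 0.15.

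The lowest small subunit genes differed little. Mrps23, a mitochondrial addition, read 6.49 on the array labelled KO and 6.79 on the WT array, 1.22-fold lower (-0.29, local spread 0.29), and lay above 5.40% of its like-level genes. Mrps12, which lines the decoding centre and carries streptomycin resistance mutations in bacteria, read 5.96 and 6.13 on the array labelled KO and the WT array (-0.16). Mrps31 read 5.34 (KO) against 5.50 on the WT array (-0.16). Mrps14 read 6.38 (KO) against 6.44 (WT), and Mrps11, Mrps9 and, near background, Mrps22 and Mrps5 differed by at most 0.04 in either direction. Mrps5, a protein tied to accuracy of decoding, read 4.64 on the array labelled KO and 4.68 on the WT array, and Mrps22, mutated in human respiratory chain disease, 3.78 (KO) and 3.77 (WT). Mrps11 read 6.42 on the array labelled KO and 6.41 on the WT array, and Mrps9 5.88 (KO) and 5.85 (WT). Of these, Mrps23 alone lay below its like-level median by more than 1 local spread.

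The remaining small subunit landmarks were modestly higher, all within 1 local spread of their like-level median apart from Mrps27. Mrps27, a pentatricopeptide repeat protein, was near background at 4.60 on the array labelled KO and 4.11 on the WT array (0.49). Mrps15, which binds the small ribosomal RNA, read 5.35 on the array labelled KO and 5.02 on the WT array (0.33). Mrps7, a protein of the subunit's head, read 5.44 on the array labelled KO and 5.18 on the WT array (0.26), and Mrps2 6.02 (KO) and 5.83 (WT), a difference of 0.19. Mrps34, mutated in human Leigh syndrome, was at least 1.13-fold higher, at 4.98 on the array labelled KO and 4.73 on the WT array. Mrps35, near background, read 4.22 and 4.08 on the array labelled KO and the WT array (0.14).

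By descent, the medians also lay close together. The 45 proteins kept from bacteria had a median difference of 0.27 and the 28 added in mitochondria one of 0.22, with medians of 0.14 relative to like-level genes in both classes. At least 1.5-fold higher were 7 and 4 of them, or 15.6% and 14.3%, beside 9.16% of all genes past the filter. Signal level limits how much can be read. Both arrays were above the negative control level for 52 members, and these had a median of 0.24, or 0.12 relative to like-level genes, with 34 above the like-level median and 5 at least 1.5-fold higher. Near background on both were 15 members, with a median of 0.27. For the 9 others only the WT reading was under the level, a class that mainly takes in genes higher on the array labelled KO by its construction, and these hold 5 of the 12 members at least 1.5-fold higher. No member was under the level on the array labelled KO alone. By mean level, the members' median relative to like-level genes was 0.31 for 20 genes under the negative control level, 0.13 for 37 between it and 6, and 0.08 for 19 at 6 or more.

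The other genes of mitochondrial protein synthesis were set beside the members, each list as a count and a median with no test. For the counts past 1.5-fold in this and the later lists, the shares over all genes past the filter were 9.16% higher and 5.16% lower. The 4 measured mitoribosomal subunits under other names all lay above their like-level median, with a median difference of 0.40 and none at least 1.5-fold higher. Dap3, a small subunit GTPase also linked to cell death, read 6.21 on the array labelled KO and 5.81 on the WT array (0.40), and Chchd1 5.38 (KO) and 4.99 (WT), also 0.40 apart. Gadd45gip1, a large subunit protein also known as a cell cycle regulator, read 5.27 (KO) against 4.72 (WT), where the WT reading is under the negative control level (0.55 as measured). Ptcd3 was at 0.34, also from under that level on the WT array.

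Factors that build the mitoribosome or modify its RNA had a median difference of 0.22, with 5 of 26 at least 1.5-fold higher and none as low. Mterf3, which restrains mitochondrial transcription and helps assemble the large subunit, read 5.03 on the array labelled KO and 3.71 on the WT array, at least 1.17-fold higher (1.32 as measured). Fastkd2 (0.85), Mtg1 (0.82), Gtpbp10 (0.76) and Noa1 (0.70) were the others, of which only Gtpbp10 exceeded the negative control level on any array. Translation factors and proteins that handle the messenger or insert the product had a median of 0.35, with 5 of 16 at least 1.5-fold higher and 1 as low. The 5 higher were Gfm2, a factor that recycles ribosomes (1.24, near background), Lrpprc, which stabilises mitochondrial messengers (1.10, near background), Mtrf1l, a release factor (1.03), Mtrf1 (0.71, near background) and Slirp, the partner of Lrpprc. For Mtrf1l the WT reading was under the negative control level, so it was at least 1.06-fold higher. Slirp read 5.63 on the array labelled KO and 5.02 on the WT array (0.61), with both readings above the negative control level. The lowest was the initiation factor gene Mtif3 (-0.66, near background).

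Mitochondrial aminoacyl-tRNA synthetase genes spread widely around a median of 0.15, with 2 of 20 at least 1.5-fold higher and 2 as low. Kars, which charges lysine tRNA in both cytosol and mitochondria, read 6.74 on the array labelled KO and 6.09 on the WT array (0.65), and Mars2 was at 0.60 near background. Aars2, near background, was at -0.80, and Tars2 read 4.08 on the array labelled KO and 4.82 on the WT array (-0.74). For Tars2 the KO reading was under the negative control level. Genes of mitochondrial DNA replication and transcription had a median of 0.24, with 3 of 18 at least 1.5-fold higher and none as low. The 3 were the thymidine kinase Tk2 (1.29), the transcription factor Tfb2m (0.78) and Elac2, a tRNA processing enzyme, which read 5.81 on the array labelled KO and 5.06 on the WT array (0.75). The WT readings of Tk2 and Tfb2m were under the negative control level, so these were at least 1.31-fold and 1.06-fold higher. The polymerase gene Polrmt was near background (0.27).

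Regulators of mitochondrial gene expression had a median of 0.03, and 3 of 9 lay above their like-level median. Nrf1, which binds many promoters of mitochondrial genes, read 5.80 on the array labelled KO and 4.98 on the WT array (0.81, 1.76-fold higher). Myc read 8.78 on the array labelled KO and 8.32 on the WT array (0.46), and Pprc1 was at -0.32 near background.

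Other mitochondrial lists lay close to the mitoribosomal genes, and cytosolic ribosomal protein genes did not. Relative to like-level genes, the median was 0.16 for 35 complex I subunits, 0.12 for 37 subunits of complexes III, IV and V, and 0.12 for 21 import genes. Of these, 9, 0 and 2 were at least 1.5-fold higher and none was as low. Among the 9 complex I genes, Ndufs1 was near background. Ndufv3, Ndufs5, Ndufa1 and Ndufa9 had a WT reading under the negative control level. Of the 2 import genes, Timm29 was near background. The 57 cytosolic ribosomal protein genes had a median of -0.02 relative to like-level genes, 20 of them lay above their like-level median, and none was at least 1.5-fold higher or lower. Most of them read far higher than the members, where the scatter between the arrays is smaller, so their count past a fold cannot be set against that of the members.

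**Figure D3:**
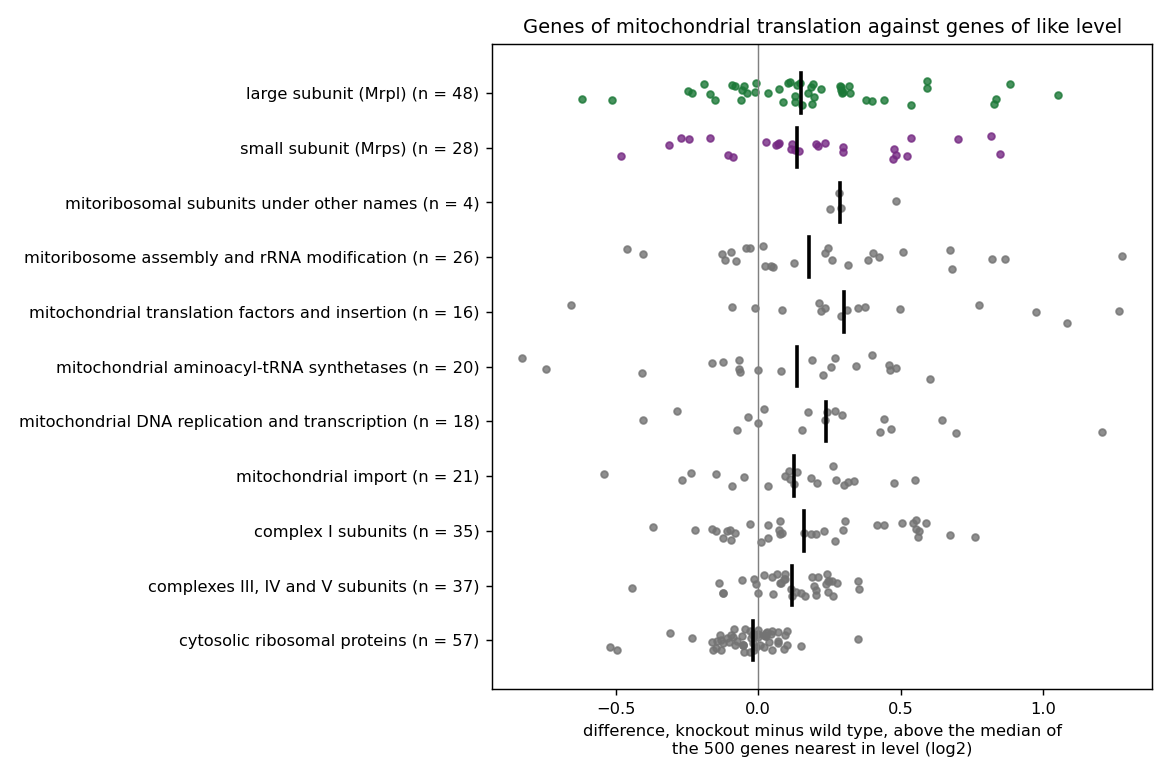
Difference of each gene (array labelled Yeats4 knockout minus WT array) above the median of the 500 genes nearest in mean level (log2, horizontal), 1 point a gene, with the number of genes in each list on the vertical axis and a black bar at each list's median. The bars of the large (0.15) and small (0.14) subunits lie beside those of complex I (0.16), and that of the cytosolic ribosomal proteins is at -0.02.

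Genes that share a promoter region with a member were read as well. For 20 members, a measured gene on the other strand starts within 1000 bases upstream and runs the opposite way, by the RefSeq windows. The median difference of these neighbours was 0.01, and 8 of the 20 lay above their like-level median. As measured, 3 neighbours were at least 1.5-fold higher, beside 9.16% of all genes, and none as low. They were Tcp1, a chaperonin subunit gene beside Mrpl18 (0.46), at 6.76 (KO) and 6.06 (WT), Ndufb5, a complex I subunit gene beside Mrpl47 (-0.09), at 6.84 (KO) and 6.22 (WT), and Mitd1 beside Mrpl30 (0.45), near background at 4.48 (KO) and 3.88 (WT). Mrpl27 (0.94) starts 48 bases from Eme1, an endonuclease subunit gene, which read 3.20 on the array labelled KO and 3.61 on the WT array (-0.42, near background). Mrpl32 (0.91) starts 205 bases from Psma2, a proteasome subunit gene that read 6.80 and 6.38 on the array labelled KO and the WT array (0.42). Mrps12 (-0.16) starts 147 bases from Sars2, the mitochondrial seryl-tRNA synthetase gene, at 5.23 on both arrays. Mrpl46 (-0.22) and Mrps11 (0.02) are each other's neighbour, 42 bases apart, and so count in both roles. Member and neighbour lay on the same side of their like-level medians in 12 of the 20 cases. The other neighbours named were chosen as examples after their values were seen.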

How the data were processed

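The values are log2 expression per probe set, made by the authors with Affymetrix Power Tools and RMA before they were deposited, per the submitters' processing notes. For versions and genome build, the sources used here give nothing. RMA includes quantile normalization, so the arrays cannot show a change in the amount of RNA per cell. Scanner intensities were not used here, and the number of arrays limits the precision. Of 29129 probe sets 19572 have 1 symbol in the platform annotation; for 55 genes with several, that of highest mean was used. The design text names another array type than this annotation, so gene names rest on the annotation. All 76 members' gene identifiers were found in the RefSeq table (GRCm38.p6). Values were used without further centring. Differences from local medians were tested on simulated data, but the local spreads (scaled median absolute deviation) were not. Folds against a reading under the negative control level are lower limits, computed against 4.80. The samples were grouped by genotype label.

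Members, lists, motifs and the naming rule were chosen with earlier results of these data known. Named are the 8 highest and lowest genes of each subunit, all at least 1.5-fold, and landmark subunits. In the lists of mitochondrial protein synthesis, mitochondrial DNA and regulators, the 3 largest differences or up to 5 past 1.5-fold are named. Lists of cell markers, mitotic genes, respiratory complexes, import and cytosolic ribosomal proteins are given by counts, with genes named in some of them. Further examples were chosen after their values were seen. Alternatives were other level filters, scalings, windows, thresholds and subunit assignments. Python 3.11.15, numpy 2.4.6, pandas 2.3.3, statsmodels 0.14.6 and matplotlib 3.10.9 were used.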

Additional observations from a re-analysis of the deposited data

How the results depend on the processing

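No alternative turned the sign of either subunit's median, and 39 of 48 recomputed values stayed close to the reported one. Close means inside a binomial order-statistic interval over members for a median, which covers scatter among genes and not between mice, and within 1.5 times for a count. Counts were compared without regard to the number of members kept or the share of all genes. Thus counts among 56 members under stricter level filters were set against counts among 76. Some of the 48 could hardly move. Every member has 1 probe set and passed the filter, so averaging probe sets or dropping the filter left the members' differences as they were. Centring shifts a gene and its like-level genes alike, so the count above the like-level median was fixed. All 9 that moved came from a scaling, from lifting dim values or from the 2-fold threshold. The large subunit median of 0.27 was 0.19 after centring, 0.17 after quantile normalization, and 0.15 both after the loess correction (span 0.3) and when dim values were lifted to 4.80, the control level. The small subunit median was 0.14 after the loess correction. The 12 members at least 1.5-fold higher became 6 with dim values so lifted, beside 3.56% of all genes, and 1 at a 2-fold threshold. With dim values so lifted, 43 members lay above their like-level median, which counted as close to 54. The share of all genes above it was then 28.5% in place of 49.8%. The loess correction and quantile normalization each gave 1 member at least 1.5-fold lower in place of 0. Under the 4 scalings 8 members stayed at least 1.5-fold higher. With the 75th percentile of level as filter (4.84), 38 of 56 members lay above their like-level median and 8 were at least 1.5-fold higher, beside 7.77% of all genes. Averaging probe sets changed no member, since each has 1. No paired analysis was possible because each genotype had 1 array. The 24 members with a reading under the negative control level limit what can be read from the group.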
